A study of Mus musculus with 2 samples.

Results

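The tumour necrosis factor (TNF) superfamily genes described here are 10 of the 55536 genes in the tables, chosen by gene symbol. They comprise 7 ligands (Tnf, Ltb, Tnfsf10, Tnfsf12, Tnfsf13, Tnfsf13b and Tnfsf14) and 3 receptors (Tnfrsf1a, Tnfrsf1b and Fas). All 10 symbols were found. They were measured by total RNA-seq in primary neutrophils of mouse spleen, as 1 group of 2 libraries, called replicate 1 and replicate 2. The animals were untreated as far as the labels say: male B6CASTF1/J adults of 65 days, which are first-generation hybrids with C57BL/6 mothers and CAST/EiJ fathers. Each library was made from 300 ng of RNA with a directional kit, with ERCC spike-in RNA added. The libraries are labelled biological replicates 1 and 2, yet both carry 1 donor identifier. Separate animals are therefore not shown, and the spread and p-values below cover differences between these libraries that may be technical.

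Ligands of this superfamily are made as membrane proteins that assemble into trimers, and many are cut by a protease into a soluble form. Many of their receptors carry a cytoplasmic death domain, as Tnfrsf1a and Fas do, or bind TRAF adaptor proteins directly, as Tnfrsf1b does. The outcome is NF-κB activation and survival in some settings and caspase-driven or necroptotic death in others. Neutrophils are known both as targets of TNF, which primes them, and as a source of B cell survival factors such as BAFF (Tnfsf13b) and APRIL (Tnfsf13).

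Replicate 1 held 18387963 expected counts and replicate 2 held 18090108. One count on a gene of 1 kb was worth 0.0458 TPM in replicate 1 and 0.0538 TPM in replicate 2, where TPM is a level per transcript length scaled to a fixed library total. The neutrophil label was checked against 10 markers, all above 100 TPM in both libraries, from S100a9 at 13196 and 27792 TPM down to Cxcr2 at 114 and 174 TPM. All 10 neutrophil markers were called higher in replicate 2 by the count test described below, where 17.0% of all genes tested were. Markers of other cells were lower: B cell markers summed to 5.38 TPM in replicate 1 and 19.9 TPM in replicate 2, T cell markers to 1.11 and 3.04 TPM, NK cell markers to 0.220 and 0.400 TPM, and monocyte and macrophage markers to 116 and 148 TPM.

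Of the 10 members, 9 stood at 1 TPM or more in both libraries, a level reached by 43.3% of the 22028 protein-coding genes. The exception was Tnfsf10. The receptor Tnfrsf1a was highest, with Ltb and Tnf next, and the order by mean level was Tnfrsf1a, Ltb, Tnf, Tnfsf13b, Tnfrsf1b, Fas, Tnfsf14, Tnfsf13, Tnfsf12 and Tnfsf10. The median receptor stood above the median ligand by 0.89 on the log2 scale in replicate 1 and by 0.97 in replicate 2, on log2(TPM + 0.1). Summed TPM was 157 and 203 for the 3 receptors and 124 and 155 for the 7 ligands. Within the receptor sum, Tnfrsf1a alone held 124 TPM in replicate 1 and 155 TPM in replicate 2.

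**Figure D1:**
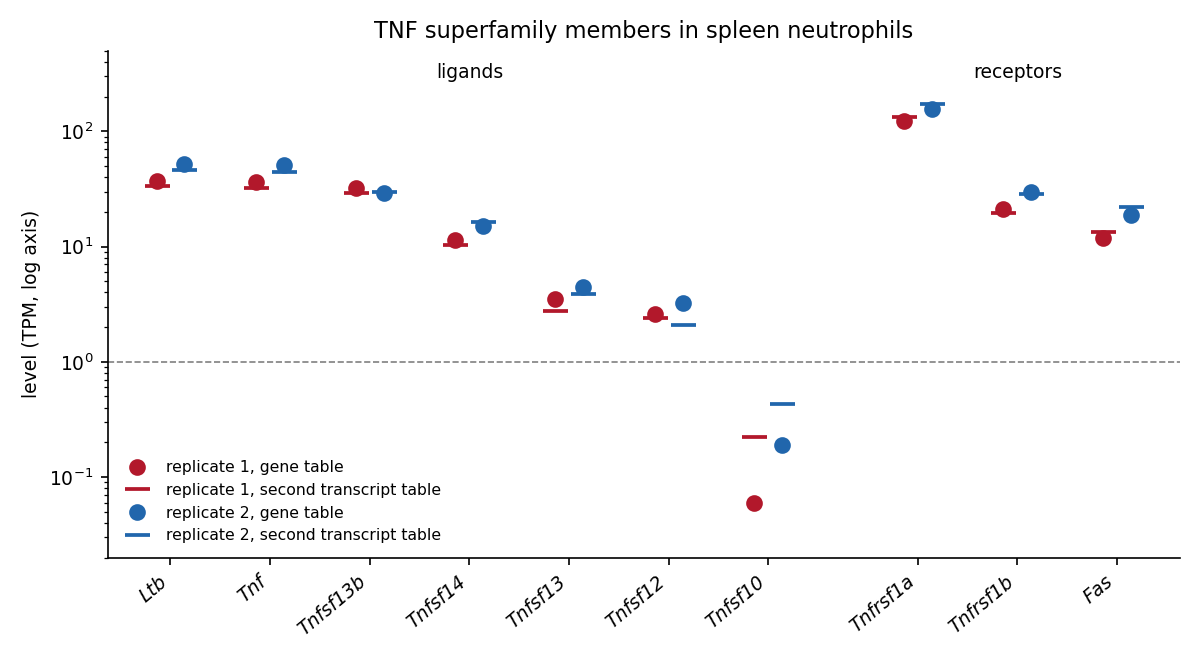
Level of each member in TPM on a log axis, with replicate 1 left of replicate 2. Points are the gene table, short bars the second transcript table, and the dashed line marks 1 TPM. Tnfrsf1a lies above every ligand, and Tnfsf10 is the only member below the line.

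Tnf (ENSMUSG00000024401.14, GRCm38 chr17:35199381-35202007, minus strand) encodes the founding cytokine of the family. It stood at 36.4 TPM in replicate 1 and 50.9 TPM in replicate 2, a mean of 43.7 ± 10.2 TPM (SD, n = 2), and ranked 1596 among protein-coding genes. It is nearly a single-transcript gene here: Tnf-201 held 100% and 98.6% of its TPM in the second transcript table. The Tnf transcript is known for an AU-rich element in its 3′ UTR, to which tristetraprolin (Zfp36) binds and speeds decay. The 30 bases of that UTR with most copies of the pentamer ATTTA begin at its base 437 and are shown because they hold 5 overlapping or adjacent copies, in capitals (GRCm38 chr17:35199679-35199708, minus strand, GENCODE M21 transcript sequence):
Tnf AU-rich stretch: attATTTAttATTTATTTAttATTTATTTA

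The whole Tnf 3′ UTR of 764 bases held 8 copies of TATTTAT, a longer form that contains ATTTA, counted on the transcript strand with overlaps allowed. Among 554 expressed genes whose 3′ UTR was within 10% of that length, 20.0% held TATTTAT at all, and 1 gene, Tnf itself, held as many. Of the other members, Tnfsf10 held 3 copies in 3998 bases and Tnfsf14 held 1 in 1019 bases. The coding transcripts highest by mean TPM of the other 7 members held none, among them those of Ltb, Fas and Tnfrsf1a. For Tnfsf13b that transcript was Tnfsf13b-201, with a UTR of 177 bases, while the UTR of Tnfsf13b-203, with 3631 bases, held 1 copy. A copy of the motif is a description of the letters, and binding was not measured.

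Ltb (ENSMUSG00000024399.5, chr17:35194439-35196320, plus strand) encodes lymphotoxin β, which anchors the lymphotoxin trimer to the membrane. It lies 3060 bases from Tnf in the same cluster. Its level, 37.4 TPM in replicate 1 and 51.9 TPM in replicate 2, matched that of Tnf closely, with an Ltb to Tnf ratio of 1.03 and 1.02. Ltb is best known from lymphocytes, and its partner lymphotoxin α (Lta), 1157 bases beyond Tnf, had 2 and 0 counts. A count of 0 in replicate 2 allows Lta up to 0.126 TPM. The 8 B cell markers lay between 0.20 (Fcmr) and 1.41 TPM (Pax5) in replicate 1 and between 0.14 (Cr2) and 6.89 TPM (Cd79b) in replicate 2, and the part of B cells in the Ltb level was not tested.

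Tnfsf13b (ENSMUSG00000031497.9, chr8:10006467-10039072, plus strand) encodes BAFF, a survival factor for B cells. It stood at 32.4 TPM in replicate 1 and 28.9 TPM in replicate 2, and was the one member whose TPM in the gene table was not higher in replicate 2. The second transcript table gave it 29.3 and 29.6 TPM, and there Tnfsf12, at 2.42 and 2.07 TPM, was the one. Tnfsf14 (ENSMUSG00000005824.7, chr17:57189492-57194177, minus strand) encodes LIGHT, which binds the herpesvirus entry mediator and the lymphotoxin β receptor. It stood at 11.4 and 15.0 TPM. By whole-gene TPM, Tnfsf13b exceeded Tnfsf13, which encodes the related ligand APRIL, by 9.23-fold in replicate 1 and 6.53-fold in replicate 2. Most Tnfsf13b TPM lay outside its coding transcripts, as described below. Over protein-coding transcripts alone, Tnfsf13b had 3.54 and 2.95 TPM and Tnfsf13 had 2.77 and 3.90 TPM by the second transcript table, a ratio of 1.28 in replicate 1 and 0.755 in replicate 2. The first transcript table gave ratios of 1.40 and 0.718, so coding transcripts showed no stable order of these genes.

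Tnfsf13 (ENSMUSG00000089669.7, chr11:69682846-69685784, minus strand) stood at 3.51 and 4.43 TPM. Tnfsf12 (ENSMUSG00000097328.7, chr11:69686250-69695849, minus strand) encodes TWEAK, a ligand of the receptor Fn14, and stood at 2.59 and 3.23 TPM. These neighbours lie 465 bases apart and are both low, so their separate values need care, as described with the readthrough gene below. Tnfsf10 (ENSMUSG00000039304.11, chr3:27317028-27342427, plus strand) encodes TRAIL, which induces apoptosis through death receptors. It had 5 counts in replicate 1 (exact Poisson 95% interval 1.62 to 11.7) and 17 in replicate 2 (9.90 to 27.2), or 0.0600 and 0.190 TPM, where a count of 0 allows up to 0.0360 and 0.0330 TPM. The second transcript table gave it 0.222 and 0.433 TPM, which still left it lowest.

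Among the receptors, Tnfrsf1a (ENSMUSG00000030341.17, chr6:125349362-125362484, plus strand), the death-domain receptor for soluble TNF, stood at 124 TPM in replicate 1 and 155 TPM in replicate 2. Its mean of 139 ± 22.1 TPM ranked 444 among protein-coding genes. Tnfrsf1b (ENSMUSG00000028599.10, chr4:145213463-145246870, minus strand), the TRAF-binding receptor that responds best to membrane TNF, stood at 21.2 and 29.6 TPM. Tnfrsf1a thus exceeded Tnfrsf1b by 5.83-fold in replicate 1 and 5.23-fold in replicate 2. Fas (ENSMUSG00000024778.13, chr19:34290666-34327772, plus strand), the death receptor for Fas ligand, stood at 11.8 and 18.7 TPM.

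Of the 9 pairs of neighbours in the order, 4 were apart, meaning that both libraries gave the same order and the means differed by more than the sum of their SDs. These were Tnfrsf1a over Ltb, Tnf over Tnfsf13b, Tnfsf14 over Tnfsf13 and Tnfsf12 over Tnfsf10. Ltb and Tnf differed by 0.945 TPM, well inside their spread. Tnfsf13b and Tnfrsf1b changed places between the libraries. Between the second transcript table and the gene table, 0 of the 9 members above 1 TPM differed over 2-fold in both libraries on log2(TPM + 0.1), where 4.19% of 10370 protein-coding genes did, and nothing particular to the members is read from this. The TPM of Tnfsf10, given above, did differ over 2-fold in both libraries, though by less on that scale. Within the second table, 4 pairs were again apart, but Tnf and Tnfsf13b were not, while Tnfsf13 and Tnfsf12 were.

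The partners of the members were measured at very different levels. The receptor that binds lymphotoxin β and LIGHT, Ltbr, stood at 20.4 TPM in replicate 1 and 19.9 TPM in replicate 2, and Tnfrsf14, the herpesvirus entry mediator, at 22.8 and 33.2 TPM. Tnfrsf12a, the TWEAK receptor Fn14, stood at 4.70 and 5.60 TPM. Bulk RNA does not show which cells carry a ligand and which its receptor.

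For BAFF and APRIL, the shared receptor TACI (Tnfrsf13b) stood at 6.20 and 7.93 TPM. The BAFF receptor Tnfrsf13c, a B cell gene, stood at 0.200 and 0.460 TPM, and at 0.658 and 0.893 TPM by the second transcript table. BCMA (Tnfrsf17), a plasma cell gene, had 0 counts in both libraries, which allows up to 0.192 and 0.226 TPM. Tnfrsf13c had 8 and 16 counts and was not called between the libraries (log2 ratio -0.94, adjusted p = 0.288, exact binomial test). Of the 8 B cell markers, 6 were called higher in replicate 2, where 17.0% of all genes were. The other 2 were not called, and 1 of them, Cr2, had a log2 ratio of 1.24. The part of B cells in the level of Tnfrsf13c was not tested. Plasma cell markers summed to 68.1 and 93.6 TPM, most of it Xbp1 at 56.0 and 66.3 TPM, with Jchain next at 11.3 and 23.6 TPM. Mzb1 stood at 0.0400 and 2.05 TPM, and Prdm1, the lowest by mean, at 0.440 TPM in both libraries.

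For TRAIL, the mouse death receptor Tnfrsf10b stood at 0.240 and 0.280 TPM, but at 1.28 and 1.67 TPM by the second transcript table. The soluble decoy osteoprotegerin (Tnfrsf11b) had 0 counts. The mouse decoy receptors Tnfrsf23 and Tnfrsf22 stood at 3.89 and 4.77 TPM and at 0.320 and 0.600 TPM. By the second transcript table Tnfrsf22 stood at 1.36 and 1.98 TPM, so the levels of Tnfrsf10b and Tnfrsf22 depend on the table. These decoys are neighbouring paralogs with Tnfrsf26, and the fractional expected counts of Tnfrsf22 and Tnfrsf23 show reads shared with other entries. Fasl, the ligand of Fas, had 0 and 4 counts, against 11.8 and 18.7 TPM of the receptor.

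Across the whole family, 7 of 18 ligands and 13 of 28 receptors reached 1 TPM in both libraries by the gene table. The only ligand outside the 10 members to do so was Tnfsf9 (4-1BB ligand), at 1.27 and 1.09 TPM, and Cd40lg, Cd70, Tnfsf4 and Tnfsf18 had 0 counts in both libraries. Among the receptors outside the members, Tnfrsf21 (death receptor 6) was highest at 32.7 and 38.5 TPM, and Relt stood at 18.1 and 28.2 TPM. Tnfrsf26 stood at 3.22 and 3.47 TPM, Cd40 at 2.54 and 3.39 TPM and Tnfrsf18, the receptor GITR, at 1.12 and 3.0 TPM. By the second transcript table, Tnfrsf10b, Tnfrsf22 and Tnfrsf11a (1.67 and 1.11 TPM) also reached 1 TPM in both libraries, so the receptor count depends on the table.

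**Figure D2:**
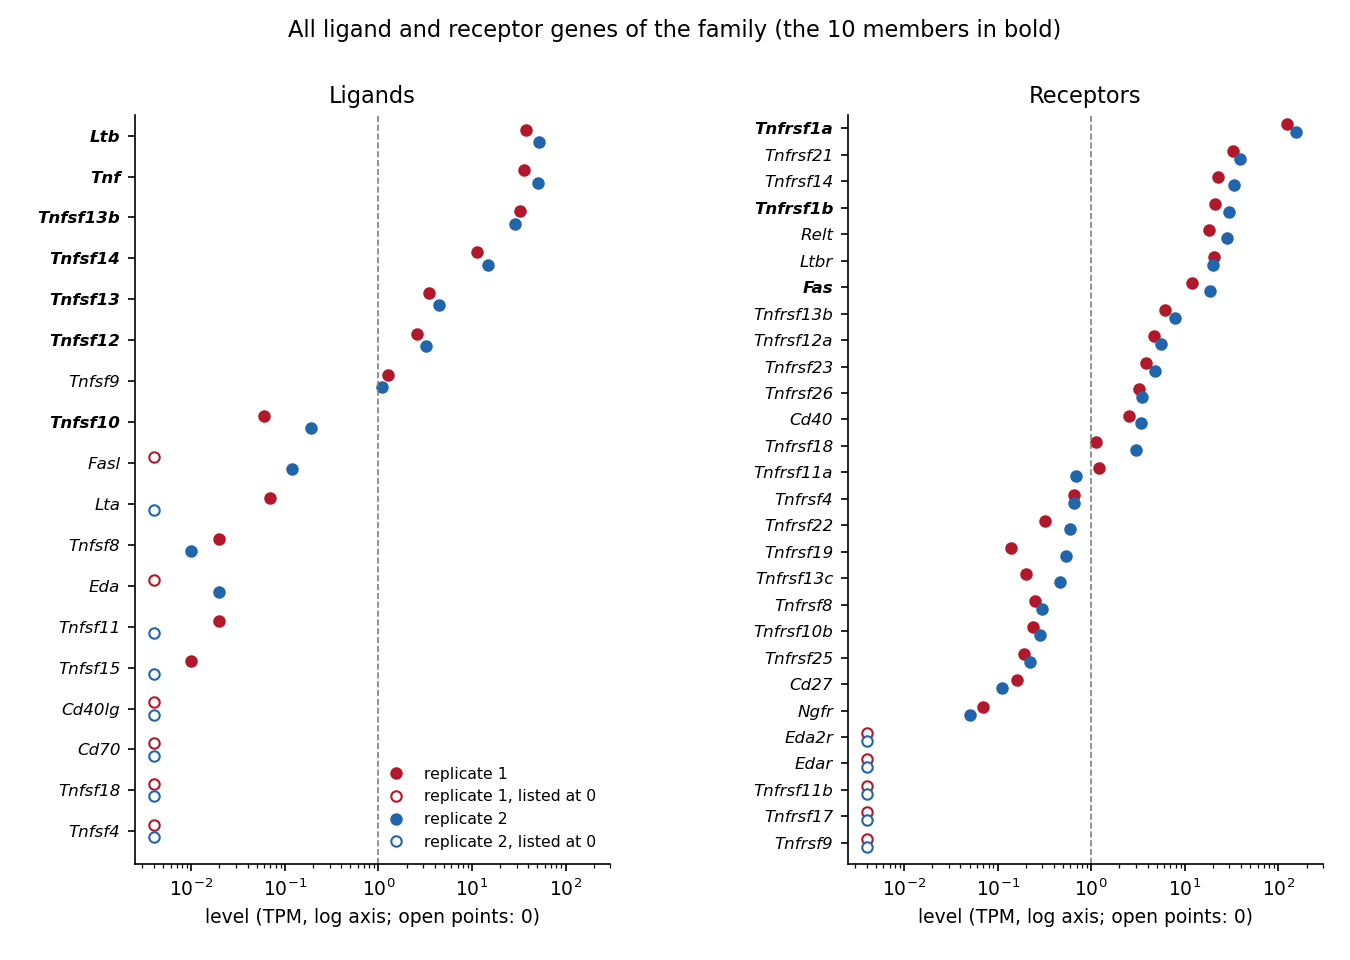
Level in gene-table TPM on a log axis of all 18 ligand genes (left panel) and 28 receptor genes (right panel) of the family. Replicate 1 is drawn above replicate 2 in each row. Open points mark genes listed at 0, and the dashed line marks 1 TPM. All but 1 of the ligands past the line are members, while 10 of the 13 receptors that reach it in both libraries are not.

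Each gene's rounded expected counts were then set against each other in a binomial test (exact, two-sided, with the scaled library sizes as the null), which compares these 2 libraries and not conditions. By this test 3 of the 10 members were called at an adjusted p under 0.05, all higher in replicate 2, where 32.1% of 15118 genes tested were called (15.0% higher in replicate 1 and 17.0% higher in replicate 2). The members' share is near that of all genes and is not a result about the family. The median log2 ratio of replicate 1 over replicate 2 was -0.16 for the members and 0.00 for all genes tested, and 8 of the 10 members had a ratio below 0. In bulk RNA, fewer cells of a type and less RNA per cell cannot be told apart.

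Tnfrsf1b had 1721 counts in replicate 1 and 2047 in replicate 2, a log2 ratio of -0.23 (adjusted p = 6.29e-06, exact binomial test with Benjamini-Hochberg adjustment over all genes). Tnf had 1223 and 1452 counts, a log2 ratio of -0.23 with an adjusted p of 0.000247 by the same exact test. Ltb had 821 and 936 counts, a log2 ratio of -0.17 with an adjusted p of 0.0421 by the same exact test. These are small differences in deep counts, and none of the 3 was called when the spread between all genes of the libraries was allowed for in a negative binomial exact test (adjusted p = 1.00 each). That test called 0 of the 10 members and 1.64% of all genes. Its spread was estimated from these same 2 libraries taken as 1 group, so differences between them count as spread. It therefore cannot decide on ratios as small as those of Tnfrsf1b, Tnf and Ltb. Median-of-ratios size factors gave 3 members called and 31.1% of genes, library totals 5 members and 32.4%, and no minimum count 2 members and 21.3%. With the counts of the second transcript table, 5 members and 31.1% of genes were called.

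Tnfrsf1a, the member with the most counts, had 5109 in replicate 1 and 5304 in replicate 2, a log2 ratio of -0.04 that was not called. Tnfsf10 had the log2 ratio farthest from 0, -1.65 from 5 and 17 counts, which was not called either (adjusted p = 0.0523, exact binomial test). The 2 ratios above 0 were those of Tnfsf12 (0.29) and Tnfsf13b (0.13), also not called. Scaled to the ERCC spike-ins in place of TMM, all 10 ratios were below 0 and 9 members were called, where 75.1% of all genes were called and the median of all genes moved to -0.74. The direction of Tnfsf12 and Tnfsf13b thus depends on the scaling.

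**Figure D3:**
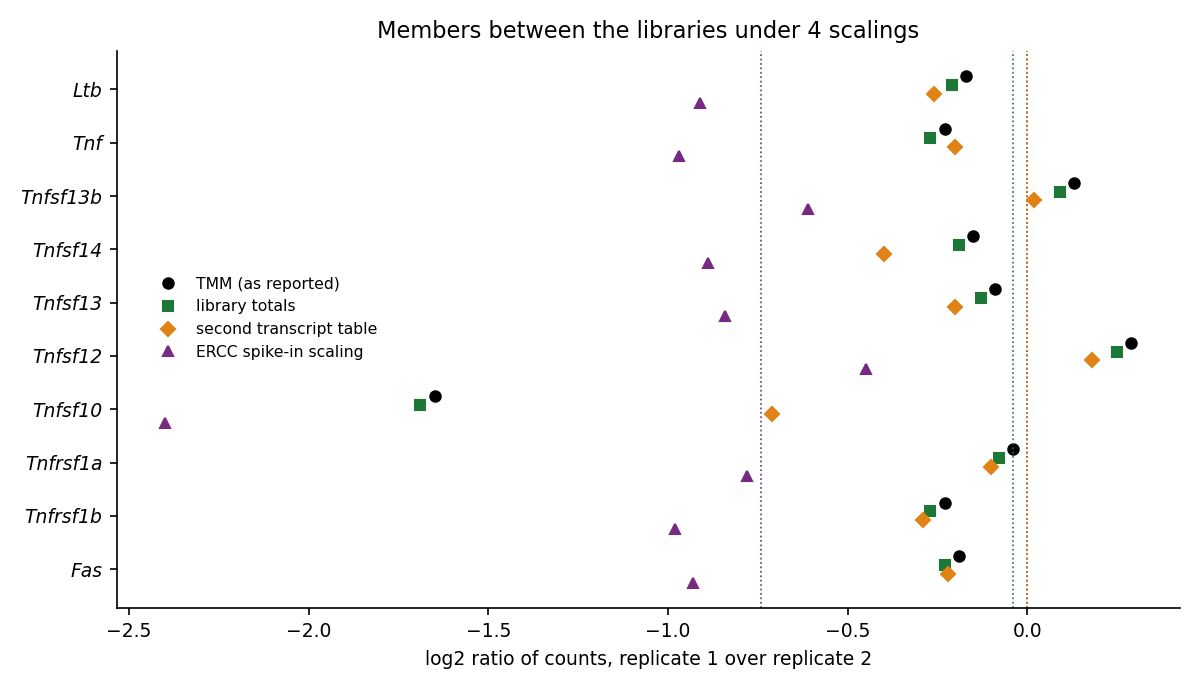
Log2 ratio of counts, replicate 1 over replicate 2, for each member under 4 scalings. Dotted lines give the median of all genes tested under the scaling of the same colour. Under ERCC scaling the members shift with that median, and Tnfsf12 and Tnfsf13b lie right of 0 only under the other scalings.

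The deposited TPM was higher in replicate 2 for 9 of the 10 members in either table, all but Tnfsf13b in the gene table and all but Tnfsf12 in the second transcript table. The protein-coding share of all TPM was 32.8% in replicate 1 and 45.4% in replicate 2. With gene-table TPM rescaled to protein-coding genes alone, Tnf stood at 111 and 112 TPM and Ltb at 114 and 114 TPM, nearly equal in both libraries. Tnfsf13b stood at 98.7 and 63.7 TPM on this scale, and Tnfrsf1a at 377 and 341 TPM.

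Total RNA also showed which annotated transcripts carried each gene's level. In 8 of the 10 members 1 transcript led in both libraries and both transcript tables, and Tnfsf14 has a single annotated transcript. The exceptions were Ltb and Tnfsf13b. Shares below are percent of a gene's TPM, first by the second transcript table and then by the first, which divides reads between transcripts in another way. Where only 1 table is given, it is the second unless stated.

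Tnfsf13b was divided among 6 transcripts, most of them without a full coding frame. Its protein-coding transcripts held 12.1% of it in replicate 1 and 9.95% in replicate 2 by the second table, and 15.2% and 11.0% by the first. In proportion to counts in place of TPM the protein-coding share was 19.9% and 19.6% by the second table, since one of these transcripts is long. Among 9505 protein-coding genes at 1 TPM or more in both libraries, the median protein-coding share of TPM was 73.2%, and 1.21% of genes were at or below Tnfsf13b in both libraries. By the first table, 1.44% of 9522 genes were.

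The retained-intron class held 48.2% and 38.7% of Tnfsf13b TPM by the second table and 51.6% and 38.2% by the first. Within it, Tnfsf13b-206, a short 3′ fragment, led the gene in replicate 1 with 37.6%, against 26.9% in replicate 2. Tnfsf13b-205, annotated as a target of nonsense-mediated decay (the surveillance pathway that removes mRNA with an early stop), held 26.2% in replicate 1 and led in replicate 2 with 40.6%. The first table gave the same leaders, with 43.0% and 27.5% for Tnfsf13b-206 and 19.7% and 37.6% for Tnfsf13b-205.

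The full-length coding transcript Tnfsf13b-203 held 3.69% and 5.28%. Tnfsf13b-201 lacks exon 4 of Tnfsf13b-203, as does the known mouse splice form ΔBAFF, which lowers BAFF release, and it held 8.43% and 4.66%. These transcripts differ from Tnfsf13b-205 at exon 4, whose sequence is therefore shown. It has 57 bases, or 19 codons, in Tnfsf13b-203 (GRCm38 chr8:10021373-10021429, plus strand). Tnfsf13b-205 extends it by 58 bases at its 3′ end, in capitals (chr8:10021373-10021487), and its annotated stop codon begins at base 30 of the added stretch, with 3 exons still to follow:
Tnfsf13b-203 exon 4: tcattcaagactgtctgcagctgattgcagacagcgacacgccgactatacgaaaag
Tnfsf13b-205 exon 4: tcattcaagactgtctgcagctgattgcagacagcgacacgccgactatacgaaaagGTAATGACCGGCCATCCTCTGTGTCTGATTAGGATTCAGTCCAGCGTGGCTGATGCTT

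The processed transcript Tnfsf13b-202 keeps exon 4 but ends in an exon of its own, and held 13.5% and 10.8%. Tnfsf13b-204 reads on into the intron after exon 4 and held 10.6% and 11.8%. The 5 transcripts that contain the 5′ exons thus share exons 2 and 3 and part ways at exon 4 or directly after it. Whether the non-coding entries are processed RNA or unspliced precursor cannot be told apart in total RNA.

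**Figure D4:**
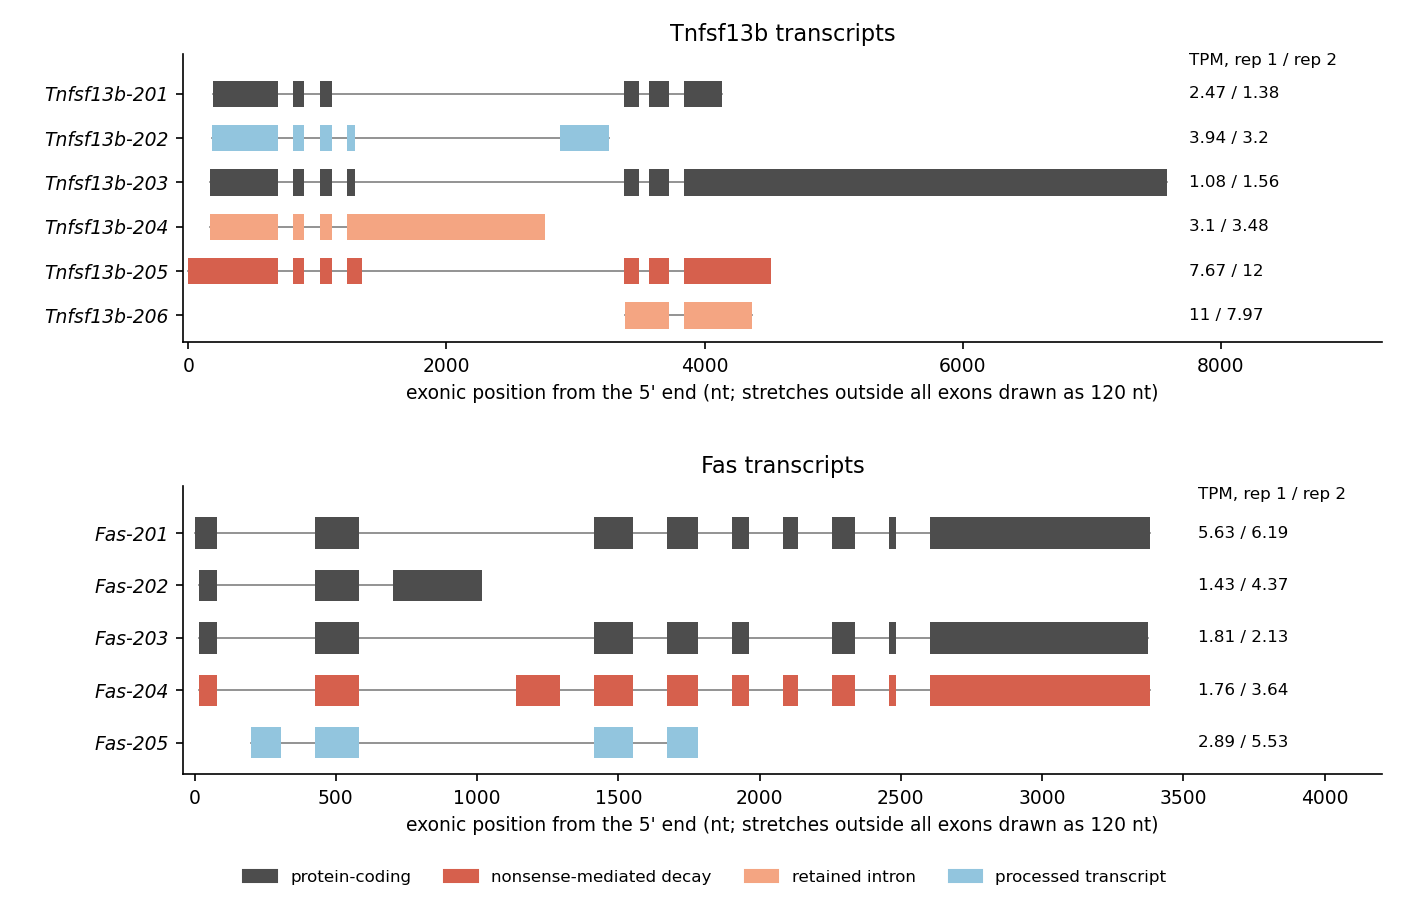
Annotated exons of the Tnfsf13b and Fas transcripts to scale in nt from the 5′ end, with stretches outside all exons shortened to one width. Colours give the annotated class, and the numbers are TPM of the second transcript table in replicate 1 and replicate 2. Tnfsf13b-205 and Tnfsf13b-206 have the highest values of that gene, and Fas-203 differs from Fas-201 by 1 inner exon.

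Fas-201, which encodes the membrane receptor, led its gene with 41.6% in replicate 1 and 28.3% in replicate 2 by the second table and with 55.0% and 45.3% by the first. Fas-203 lacks exon 6 of the 9 exons of Fas-201, the exon for most of the membrane-spanning segment. In human cells, skipping of the matching exon is known to yield a soluble FAS. Fas-203 held 13.4% and 9.73% by the second table and 22.1% and 5.57% by the first. The exon is shown because its absence is the main difference between these coding transcripts. It has 54 bases, or 18 codons, so the reading frame holds without it (GRCm38 chr19:34318783-34318836, plus strand):
Fas-201 exon 6: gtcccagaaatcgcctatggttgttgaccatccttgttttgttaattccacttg

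By expected counts of the first table, Fas-203 had 74.3 in replicate 1 and 25.2 in replicate 2, with posterior SDs of 16.65 and 13.11. The second table gave it 60.7 and 55.2 counts. The tables thus gave different ratios between the libraries for the transcript without exon 6, and no difference is read from them. Fas-202, a short coding transcript, held 10.6% and 20.0% by the second table and 8.63% and 18.5% by the first. The decay-annotated Fas-204, with an extra exon of 158 bases, held 13% and 16.7% by the second table and 9.14% and 14.6% by the first. The processed transcript Fas-205 held 21.3% and 25.3% by the second table but 5.16% and 16.0% by the first, so its level rests on how reads were assigned.

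Ltb was divided between 2 coding transcripts whose shares the tables settled differently. Ltb-201 held 63.6% and 86.3% by the second table and 46.8% and 38.8% by the first. Ltb-203, whose second exon starts 86 bases later, held 20.7% and 0.322% by the second table and 37.0% and 47.9% by the first. The retained-intron form Ltb-202 held 15.7% and 13.3% by the second table and 16.2% and 13.3% by the first, so this share was steady between tables.

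The TNF receptor transcripts were simpler. Tnfrsf1a-201 held 78.4% and 76.9% of its gene by the second table and 88.0% and 84.2% by the first. The decay-annotated Tnfrsf1a-202 held 16.4% and 16.8% by the second table and 1.03% and 0.813% by the first, so its level rests on how reads were assigned. Tnfrsf1b-201 held 100% of its gene in both tables and libraries. Tnfsf12-202 held 79.0% and 100% of its gene and Tnfsf13-201 held 73.7% and 93.2% by the second table, on few counts. Tnfsf12-201, a fragment of 331 bases, held 21% and 0% by the second table but 0% and 26.9% by the first. Tnfsf13-202 held 26.3% and 6.84% by the second table and 0% and 5.87% by the first. Tnfsf10-201 held 100% in both libraries by the second table, and by the first Tnfsf10-202 held 33.3% in replicate 1, from under 1 expected count.

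**Figure D5:**
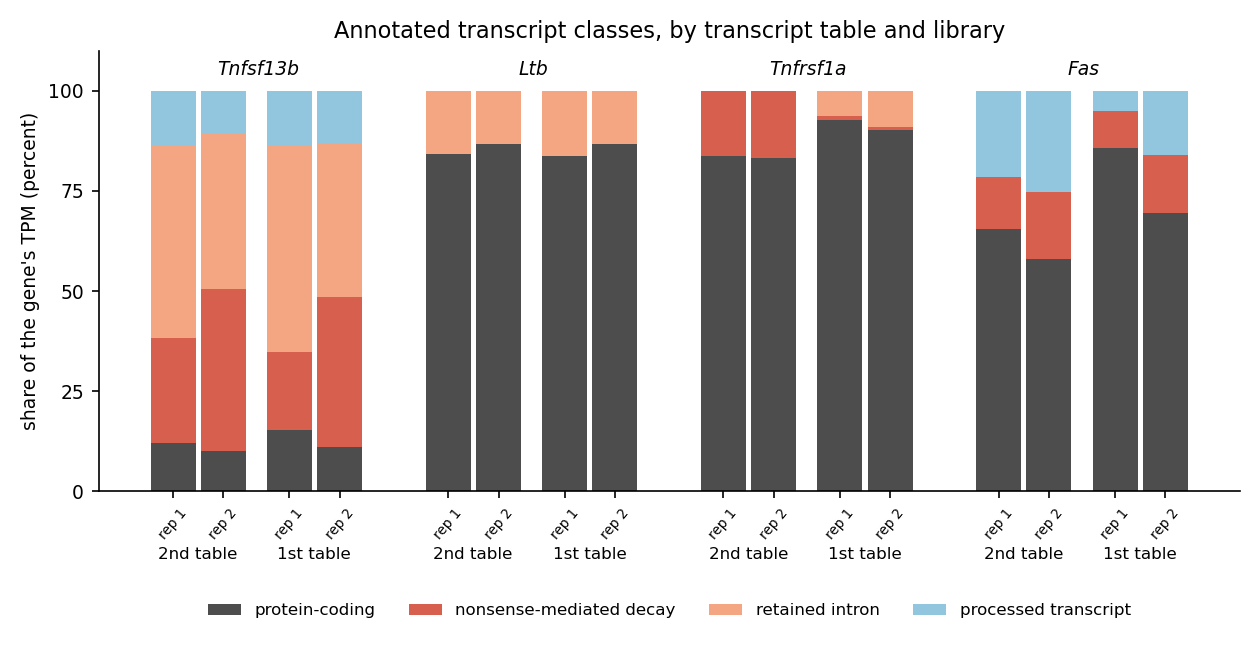
Share of each gene's TPM in percent by annotated transcript class, for the 4 members with more than 1 class in use, by the second (2nd) and the first (1st) transcript table, with replicate 1 left of replicate 2. Protein-coding transcripts hold between 9.95% and 15.2% of Tnfsf13b, and over 50% of the other genes.

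Tnfsf12 and Tnfsf13 share exonic sequence with Tnfsfm13, an annotated readthrough gene that spans both, which covers 48.3% of the exonic bases of Tnfsf12 and 60.0% of those of Tnfsf13. A known fusion protein, TWE-PRIL, is made from such a joined transcript in human. Tnfsfm13 took 15.4 counts in replicate 1 and 69.8 in replicate 2 by the gene table, with posterior SDs of 8.31 and 12.87, and 47.8 and 103 counts by the second transcript table. Its share of the 3 genes' counts was therefore 8.09% and 29.1% by the gene table and 22.8% and 39.6% by the second table. The 3 genes together had 191 counts in replicate 1 and 240 in replicate 2. The separate levels of Tnfsf12 and Tnfsf13 are uncertain to this extent.

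Receptors of the family pass their signal to adaptors and ubiquitin ligases, then to kinases. All 13 adaptors and ubiquitin ligases of the list reached 1 TPM in both libraries, with a list median of 18.5 and 16.4 TPM. The ubiquitin ligase Birc3 was highest at 82.8 and 87.9 TPM, and Sharpin, Ripk1 and Rbck1 stood at 42.0 and 52.3, 35.9 and 37.6, and 28.6 and 31.8 TPM. Fadd, the adaptor that links Fas to caspase-8, was lowest at 1.02 and 1.43 TPM. Between libraries, 3 adaptors were called higher in replicate 1, namely Birc3 (log2 ratio 0.20), Ripk1 (0.21) and Traf3 (0.33), and Traf6 (-0.21) was called higher in replicate 2. Of all genes tested, 32.1% were called, 15.0% higher in replicate 1 and 17.0% higher in replicate 2. The adaptor calls are near that share and are not a result about the list. The median log2 ratio of this list was 0.11.

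All 10 kinases of the list reached 1 TPM in both libraries. By mean, Map3k5 (ASK1) was highest at 81.9 and 58.1 TPM, and Ikbkb, the IκB kinase β subunit, was next at 64.7 and 64.5 TPM, above Map3k5 in replicate 2. They were followed by Tab2 at 29.6 and 38.9 TPM and Chuk, the α subunit, at 17.9 and 18.2 TPM. Tab1 was lowest by mean at 5.03 and 6.61 TPM, although Tab3 was lower in replicate 2 at 5.72 TPM. Here 3 kinases were called higher in replicate 1 and 2 in replicate 2, where 15.0% and 17.0% of all genes were. The list median ratio was 0.10.

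The feedback inhibitors held the highest levels among these pathway lists. Zfp36, which binds AU-rich elements such as that of Tnf, stood at 399 and 654 TPM. The NF-κB inhibitor Nfkbia stood at 319 and 379 TPM, the ubiquitin-editing enzyme Tnfaip3 (A20) at 156 and 226 TPM, and Tnfaip8 at 37.2 and 44.8 TPM. Tnip2 was lowest at 5.81 and 6.62 TPM. All 9 reached 1 TPM in both libraries. Of them, 2 were called higher in replicate 1 and 3 in replicate 2, where 15.0% and 17.0% of all genes were. The list median ratio was -0.04. The 3′ UTRs of Zfp36, Nfkbia and Tnfaip3 held 3, 2 and 2 copies of TATTTAT. Among expressed genes with a 3′ UTR within 10% of each length, 1.09%, 1.99% and 14.34% held at least as many.

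All 7 genes of death signalling reached 1 TPM in both libraries. Cflar, the caspase-8 inhibitor FLIP, was highest at 64.8 and 79.5 TPM, above Bid at 23.5 and 25.7 TPM and Ripk3 at 13.5 and 22.4 TPM. Mlkl, the effector of necroptosis, was lowest at 5.96 and 7.61 TPM.

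Among the 8 genes for shedding and processing, 6 reached 1 TPM in both libraries by the gene table. Timp3 lay below 1 TPM in both libraries there. By the second transcript table it stood at 8.29 TPM in replicate 1 and 3.53 TPM in replicate 2, so this count depends on the table. Furin, which cleaves BAFF, APRIL and TWEAK, was highest at 94.6 and 91.7 TPM. Rhbdf2 (iRhom2), which carries the TNF sheddase to the cell surface, stood at 49.2 and 51.8 TPM, the sheddase Adam17 at 24.0 and 26.7 TPM and Adam10 at 19.2 and 29.4 TPM. Rhbdf1, the relative of Rhbdf2, was lowest by mean at 0.220 and 0.450 TPM. In this list 3 genes were called higher in each direction, where 15.0% of all genes were called higher in replicate 1 and 17.0% in replicate 2.

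Of the cell type markers named beside these genes, neutrophil markers had a median log2 ratio of -0.46 and B cell markers of -1.95 between libraries. The erythroid markers summed to 45.4 and 119 TPM, from Hba-a1 at 25.3 and 63.4 TPM down to Klf1 at 0.0300 and 0.450 TPM. Of the monocyte and macrophage markers, Csf1r was highest at 68.6 and 80.5 TPM and Marco lowest by mean at 0.170 and 0 TPM. Monocytes also express Tnf, Tnfrsf1b and Tnfsf13b. Of the 6 monocyte and macrophage markers tested, 4 were called higher in replicate 2, where 17.0% of all genes were. Mrc1 (log2 ratio 0.48) was called higher in replicate 1, where 15.0% of all genes were, and 1 was not called. The part of these cells in the levels and ratios of the members was not tested. Dendritic cell markers summed to 22.3 and 32.2 TPM, platelet markers to 17.7 and 14.0 TPM, and eosinophil and basophil markers to 69.8 and 94.6 TPM.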

How the data were processed

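Total RNA-seq of spleen neutrophils was read from 3 deposited tables per library. In the gene table and first transcript table the authors give expected counts, TPM and, for genes, FPKM, made from alignments to the mm10 transcriptome (GENCODE M21), per the notes deposited with the files. The layout is that of RSEM, whose posterior SD of each count is deposited as a score. In the second transcript table, of kallisto's layout, the authors give estimated counts and TPM. The aligner and program versions were not given in the sources used here. The deposited TPM includes noncoding RNA, so an abundant noncoding RNA lowers all other values.

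Levels are deposited TPM (mean and SD, n = 2). Expected counts were rounded and compared between libraries by a binomial test (exact, two-sided) given TMM effective library sizes (edgeR 4.0.16, R 4.3.3; SciPy 1.17.1), wherever the libraries' counts summed to at least 10, with Benjamini-Hochberg adjustment at 0.05. Log2 ratios put replicate 1 over replicate 2, after adding 0.5 to each count. The procedure was tested on simulated data. Intervals, floors (3 counts) and this test reflect counting error alone: without molecular identifiers, reads need not stand for separate molecules. A total of 26345 entries that name no gene (0.424% and 0.260% of counts) were left out of tests.

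Members and gene lists were chosen with earlier results of these data known. The text names all members, their partners, other family genes at 1 TPM or more in both libraries, up to the 4 highest and the lowest gene of each pathway list, the highest and lowest of marker lists, and transcripts with at least 10% of a gene's TPM. One gene of the death signalling list is not reported here. Traf3, Traf6, Timp3, Tnfrsf11a and a few marker genes, and the 3′ UTR motif count and exon sequences, were chosen after the values were seen. Coordinates and sequences are from GENCODE M21 on GRCm38.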

Additional observations from a re-analysis of the deposited data

How the results depend on the processing

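No paired analysis was possible because there is 1 group. The median member level was 20.2 TPM and became 51.4 over protein-coding genes alone, where 7 neighbour pairs were apart in place of 4. Genes called between libraries numbered 4850, against 11350 with ERCC scaling (the log2 ratios of Tnfsf12 and Tnfsf13b turned to -0.45 and -0.61) and 248 under the negative binomial test. Members called numbered 3, against 9 with ERCC scaling, 5 with library totals, 5 with counts of the second transcript table and 0 under the negative binomial test. By direction, 2273 genes were called higher in replicate 1 and 2577 in replicate 2, against 187 and 11163 with ERCC scaling. With no minimum count 2 members were called and Ltb was not (adjusted p = 0.0588, exact binomial test). The receptor-over-ligand difference of 0.93 became 0.87 by the second transcript table, and ran from 0.89 to 0.97 when either library was left out. The median member level then ran from 16.5 to 23.8 TPM. The number of members led by 1 transcript in both libraries of the second transcript table was 9. In replicate 1 alone, 9 members had the same leader as by mean TPM over both libraries, and in replicate 2 alone 10 had. That mean includes the library itself, so these counts do not test how stable the leaders are. The cause of these shifts was not tested. The number of libraries, 2, limits every SD given.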
